A study of Rattus norvegicus with 18 samples.

Results

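Interferon-induced genes and genes of antigen presentation were followed in mesenchymal stromal cells (MSCs) from the bone marrow of male Sprague-Dawley rats. The set was chosen by gene symbol, with earlier results of these data known, and held 39 genes. Of these, 33 had a probe on the array and 24 were detected in at least 1 of 6 groups, against 22018 genes on the array and 9531 genes detected and tested in all. A gene was counted as detected in a group where the detection p-value, which ranks its probe among the negative control beads of the same array, averaged at most 0.01 over the 3 arrays of the group. The cells came from young donors aged 3 weeks (yMSCs) or aged donors of 12 months (aMSCs) and were taken at passage 2 (P2), 30 (P30) or 100 (P100), which gives 6 groups of 3 Illumina RatRef-12 arrays. No transgene and no interferon treatment is named for any group, and all cells had been obtained by their adherence to plastic. The P30 and P100 cells are described as a pair of long-term cultures, which gives 1 for each donor age, so donor age and culture cannot be told apart at these passages. How the 3 arrays of a group were drawn is not stated, and their spread need not hold that between cultures or animals.

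Cells that sense foreign or misplaced nucleic acid secrete interferons, which bind receptors on the same and on neighbouring cells and act through Jak kinases and the transcription factors these activate. Type I interferon acts at the interferon-stimulated response element (ISRE) of its target genes, while interferon gamma acts at the gamma-activated site (GAS). The induced genes include antiviral effectors and the machinery that shows peptides on MHC class I. Inducible proteasome subunits cut the peptides, and Tap1 and Tap2 carry them into the endoplasmic reticulum. Tapbp (tapasin) helps to load them, and B2m is the light chain of the class I molecules that show them. In MSCs, interferon gamma is known to raise MHC molecules and the ability to restrain T cells.

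Signal over background sets how deep an array reads. Each array detected between 7593 and 9157 probes. Undetected probes had a median scanner intensity between 31.3 and 34.72 at P2 (6 arrays) and between 51.6 and 56.19 later (12 arrays), so that background and passage cannot be told apart in a comparison with P2. Within groups, yMSCs P30 replicate 1, aMSCs P30 replicate 3 and aMSCs P100 replicate 2 lay farthest from their group means, with a root mean square deviation over all tested genes of 0.36, 0.39 and 0.32 on the log2 scale against 0.12 to 0.26 on the other arrays. Over all tested genes, the deviations of yMSCs P30 replicate 1 and aMSCs P100 replicate 2 correlated at r = 0.81, the highest between arrays of different groups. Of 10 MSC markers on the array, 8 to 10 were detected in each group, among them Thy1, Cd44 and Pdgfra. Nt5e was not detected in yMSCs P100 as a group, though 2 of 3 arrays there detected it. Vcam1 was detected as a group in aMSCs P100 alone. By flow cytometry, the paper found the proteins of both genes, CD73 and CD106, on both P100 cultures. Levels of the markers moved in both directions. From P2 to P100 the log2 change of Nt5e was -3.28 in yMSCs and -2.89 in aMSCs, and that of Pdgfra 0.63 and 1.97. From P2 to P30 in aMSCs, Thy1 changed by -2.89, Cd44 by -1.35 and Col1a1 by 0.78. Macrophage markers stood out at P2. The array held 29, of which yMSCs P2 showed 15, aMSCs P2 showed 7 and each later group showed 1 or 2. Cd68, Aif1, Laptm5 and Ctss, genes that mark macrophages, were detected at P2 at both donor ages and in no later group. Even so, 2 of 3 arrays of aMSCs P100 detected Laptm5. Other markers did not follow this course. Cd14 was detected in every group, with mean log2 signals at P2 and P100 of 8.98 and 9.06 in yMSCs and 8.38 and 8.71 in aMSCs. Fcgr2a was detected in yMSCs P2 and in aMSCs P100. The summed linear signal of the 29 was 2150, 5370 and 2550 on the arrays of yMSCs P2, 1020, 1110 and 2490 on those of aMSCs P2, and 325 to 743 on the later arrays. In a bulk sample, fewer cells of a type and less RNA per cell cannot be told apart.

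Of the 24 detected members, 16 were detected in all 6 groups, as were 6639 of the 9531 tested genes. The other detected members came and went with passage. Ifih1, a cytosolic sensor of double-stranded RNA, and Ifit2, an antiviral protein that restrains translation, were detected at P2 at both donor ages and at neither later passage. Cxcl10, a chemokine that draws T cells, was detected in yMSCs P100 alone, on all 3 arrays, and otherwise on 1 array of aMSCs P2. Psmb8, a catalytic subunit of the immunoproteasome, was detected in every group but yMSCs P100. Tap2 was detected at P2 at both donor ages and in aMSCs P100, Ifi44 in every group but those of P30, and Gbp2, an interferon-induced GTPase, in all 3 groups of yMSCs but in aMSCs only at P100. Bst2 (tetherin), which holds budding virus at the cell surface, was just inside the detection limit, with a mean detection p of 0.00768 in its best group. The next gene outside was Psmb9, another inducible proteasome subunit, at 0.0162.

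**Figure D1:**
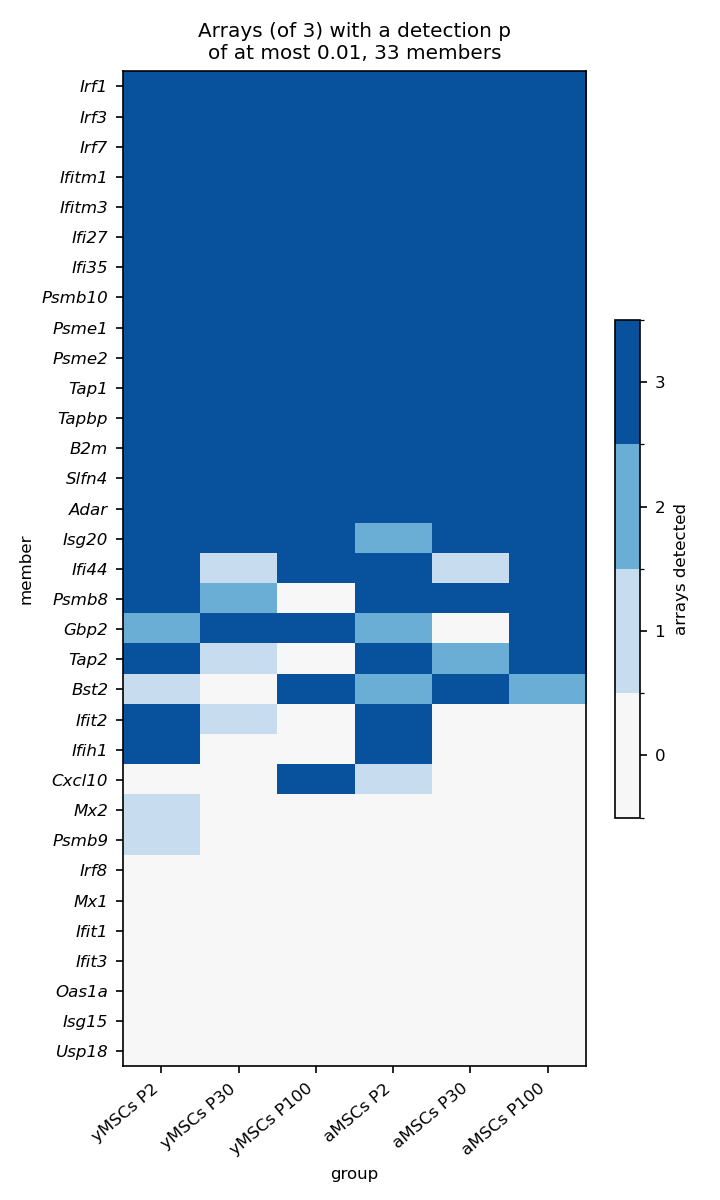
Number of arrays, of 3 in each of 6 groups, on which each of the 33 members on the array had a detection p of at most 0.01 (darker blue means more arrays). The upper 15 members were detected on all 18 arrays, Ifih1 and Ifit2 mainly on arrays of P2, and the lower 9 members in no group.

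Many of the best known interferon-induced genes were among the 9 members detected in no group. These were Irf8, Mx1, Mx2, Ifit1, Ifit3, Oas1a, Isg15, Usp18 and Psmb9. Isg15 encodes a ubiquitin-like modifier and Usp18 the protease that removes it, Mx1 and Mx2 encode GTPases that block viruses, and Oas1a makes the messenger that switches on RNase L. Mx2 and Psmb9 were each detected on 1 array of yMSCs P2, and the other 7 on none of the 18 arrays. The lowest mean detection p in any group ran from 0.0162 for Psmb9 to 0.479 for Ifit1, so their levels were not detectable above background here. Stat2, Irf9, Oasl, Rsad2, Eif2ak2 and Ddx58 could not be matched to the annotation of the array and were not analysed here.

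The promoters of the members are shown because the ISRE is the sequence through which many of these genes are known to respond. RefSeq (build GRCr8) gave a window from 250 bases before to 50 bases after the gene start for 26 of the 33 members on the array, 21 of them detected. The core letters GAAANNGAA, searched on both strands, were found in 18 of the 26 windows (69.2%), against 3251 of all 33469 windows of this length (9.71%). The GAS letters TTCNNNGAA, searched on both strands, were found in 6 of 26 (23.1%) against 8.87% of all windows, and TATAAA on the sense strand in 4 (15.4%) against 8.8%. In Bst2 the GAS letters overlap the ISRE core, and the windows of Tap1 and Psmb9, neighbours read in opposite directions, share 44 bases. A match is a description of these letters and was not tested as a binding site. In the lines that follow each stretch runs 5′ to 3′ on the strand of its gene, with the ISRE core letters, or in Irf1 the GAS letters, in capitals:
Psmb8, chr20:4657006-4657054, minus strand: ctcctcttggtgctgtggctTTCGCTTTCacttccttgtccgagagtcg
Psmb10, chr19:50743281-50743385, minus strand: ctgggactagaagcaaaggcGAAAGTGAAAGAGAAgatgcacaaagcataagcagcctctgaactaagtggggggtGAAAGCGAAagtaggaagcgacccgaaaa
Tap2, chr20:4652309-4652357, minus strand: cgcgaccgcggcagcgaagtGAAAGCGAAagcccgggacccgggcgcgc
Tapbp, chr20:4967869-4967923, minus strand: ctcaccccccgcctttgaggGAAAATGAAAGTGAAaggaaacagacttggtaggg
B2m, chr3:129549160-129549208, plus strand: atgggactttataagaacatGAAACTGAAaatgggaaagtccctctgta
Gbp2, chr2:234005677-234005725, plus strand: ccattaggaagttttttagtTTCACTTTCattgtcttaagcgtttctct
Ifi44, chr2:243303791-243303885, minus strand: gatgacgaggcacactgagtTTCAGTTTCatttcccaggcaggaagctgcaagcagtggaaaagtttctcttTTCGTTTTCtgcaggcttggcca
Ifitm3, chr1:205541774-205541822, minus strand: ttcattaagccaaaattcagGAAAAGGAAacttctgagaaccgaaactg
Irf7, chr1:205800063-205800111, minus strand: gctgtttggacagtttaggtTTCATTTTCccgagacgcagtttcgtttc
Ifih1, chr3:67683999-67684047, minus strand: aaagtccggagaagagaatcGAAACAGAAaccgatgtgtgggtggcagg
Cxcl10, chr14:15988816-15988851, plus strand: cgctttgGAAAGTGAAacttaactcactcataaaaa
Irf1, chr10:38417773-38417821, plus strand: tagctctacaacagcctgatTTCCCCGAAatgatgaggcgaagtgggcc
In Psmb8, Gbp2, Ifi44 and Irf7 the core lies on the other strand, so its reverse complement is the part in capitals. Among detected members with a window, Irf1, Irf3, Ifi35, Psme1 and Slfn4 held no ISRE core. Members that share the core moved in different directions: Psmb8 and B2m fell with passage, whereas Tapbp, Irf7 and Gbp2 rose by P100.

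**Figure D2:**
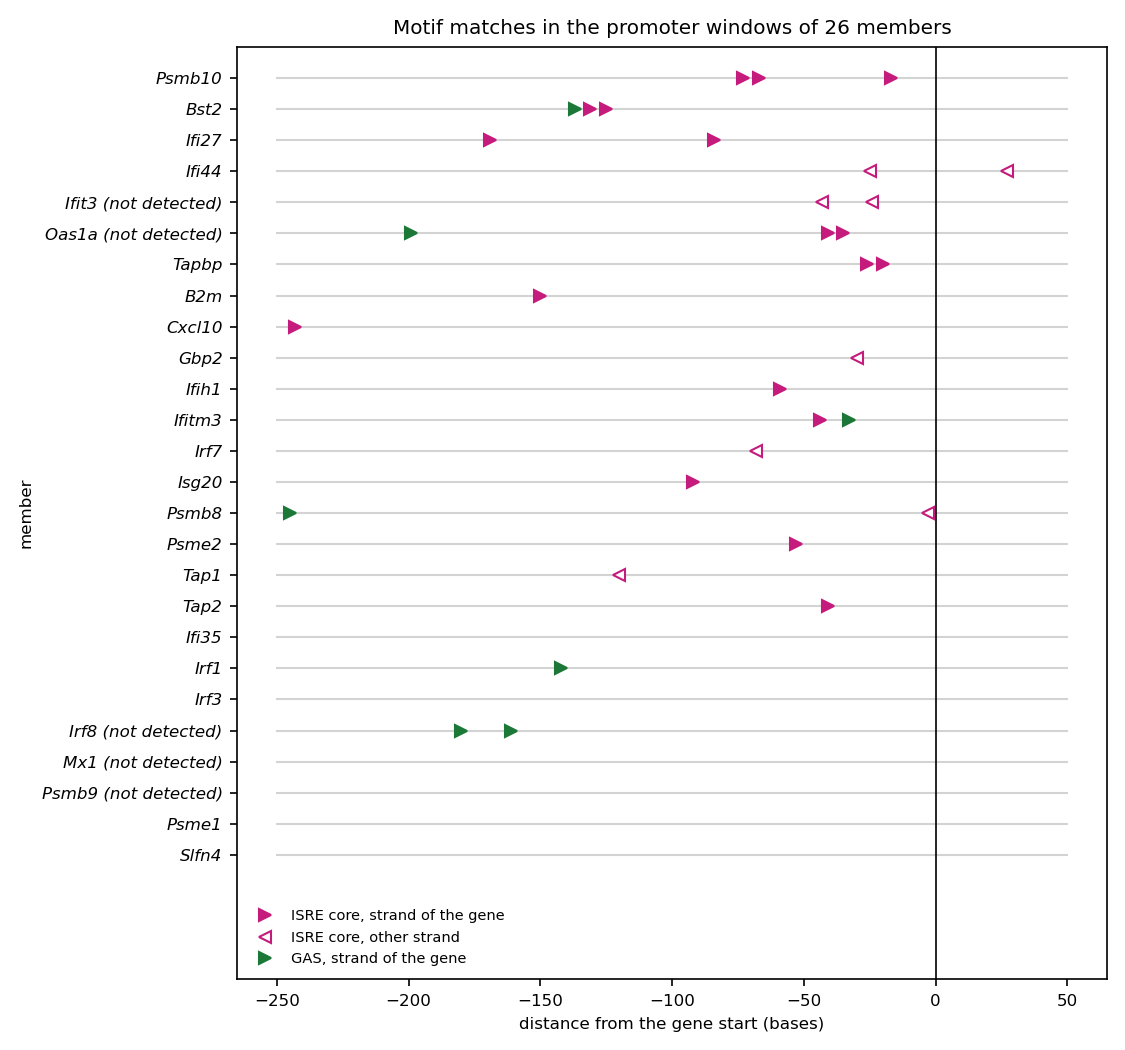
Position of each ISRE core (pink) and GAS (green) match, in bases from the gene start, in the promoter windows of 26 members, with arrowheads for the strand of the match. Of these windows, 18 hold an ISRE core and 6 hold a GAS match, and Psmb10, at the top, holds 3 cores.

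The array annotation and RefSeq place 5 members of antigen presentation on chromosome 20 in the rat MHC. Tap2, Psmb8, Tap1 and Psmb9 follow each other with no gene between them, and Tapbp lies 30 genes farther on. Psme1 and Psme2 lie on chromosome 15 on either side of Emc9, and Ifit2 and Ifit3 are neighbours on chromosome 1. The values of the neighbours differed, since Psmb8 fell in yMSCs while Tap1 was called in no comparison.

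Each comparison asked which members differ between passages of 1 donor age, or between donor ages at 1 passage. A call needed both an adjusted p under 0.05 in limma and a fold of at least 1.5. Members had entered the test through the group in which they were brightest, as had all 9531 tested genes, so each count of members stands beside the share called over all of these. From P2 to P30 in yMSCs, 2 of 24 members rose (16.4% of all tested genes) and 8 fell (16.4%), and their median change on the log2 scale was -0.26 against 0.04 over all genes. From P2 to P100 in yMSCs, 9 rose (20.6%) and 7 fell (18.7%), with a median of 0.39 against 0.06. Between P30 and P100 in yMSCs 4 rose (3.39%) and 0 fell (4.5%), at medians of 0.28 and 0.01. The 4 were Irf7, Ifi44, Psme1 and Cxcl10.

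In aMSCs, 3 members rose from P2 to P30 (19.3% of all tested genes) and 4 fell (20%), and the median was 0.17 against 0.05 over all genes. From P2 to P100 in aMSCs, 10 rose (19.1%) and 5 fell (18.6%), with a median of 0.49 against 0.03, and from P30 to P100 10 rose (14.2%) and 2 fell (12.2%), with a median of 0.28 against -0.04. Against the background, 10 of 24 members called higher at P100 is 41.7%, while at P30 the 3 higher and 4 lower are 12.5% and 16.7%. The members were chosen with earlier results of these data known, so these shares describe the members and do not test them as a set. Comparisons with the same P2 or P30 arrays share those arrays and are not independent of each other.

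Between donor ages, 0 members were higher (1.76%) and 1 was lower (2.29%) in aMSCs than in yMSCs at P2, the latter being Ifitm1. At P30, 4 members were higher in aMSCs (8.12%) and 1 lower (9.53%). At P100, 10 were higher in aMSCs (10%) and 2 lower (9.03%). The 10 were Irf1, Irf7, Isg20, Ifitm3, Ifi27, Ifi35, Ifi44, Psmb8, Tap2 and Tapbp, and the 2 were Slfn4 and Cxcl10. The count of 12 at P100 fell to 6 without aMSCs P100 replicate 1 and to 7 without yMSCs P100 replicate 1, and that of 5 at P30 to 3 without aMSCs P30 replicate 2. At P2 the lone call became 2 without yMSCs P2 replicate 1 or without aMSCs P2 replicate 3. The interaction of donor age with passage, which tests whether the change itself differed, was past the threshold for 4 members in the change from P2 to P30 (11.8% of all genes), for 5 from P2 to P100 (13.7%) and for 7 from P30 to P100 (21.9%).

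**Figure D3:**
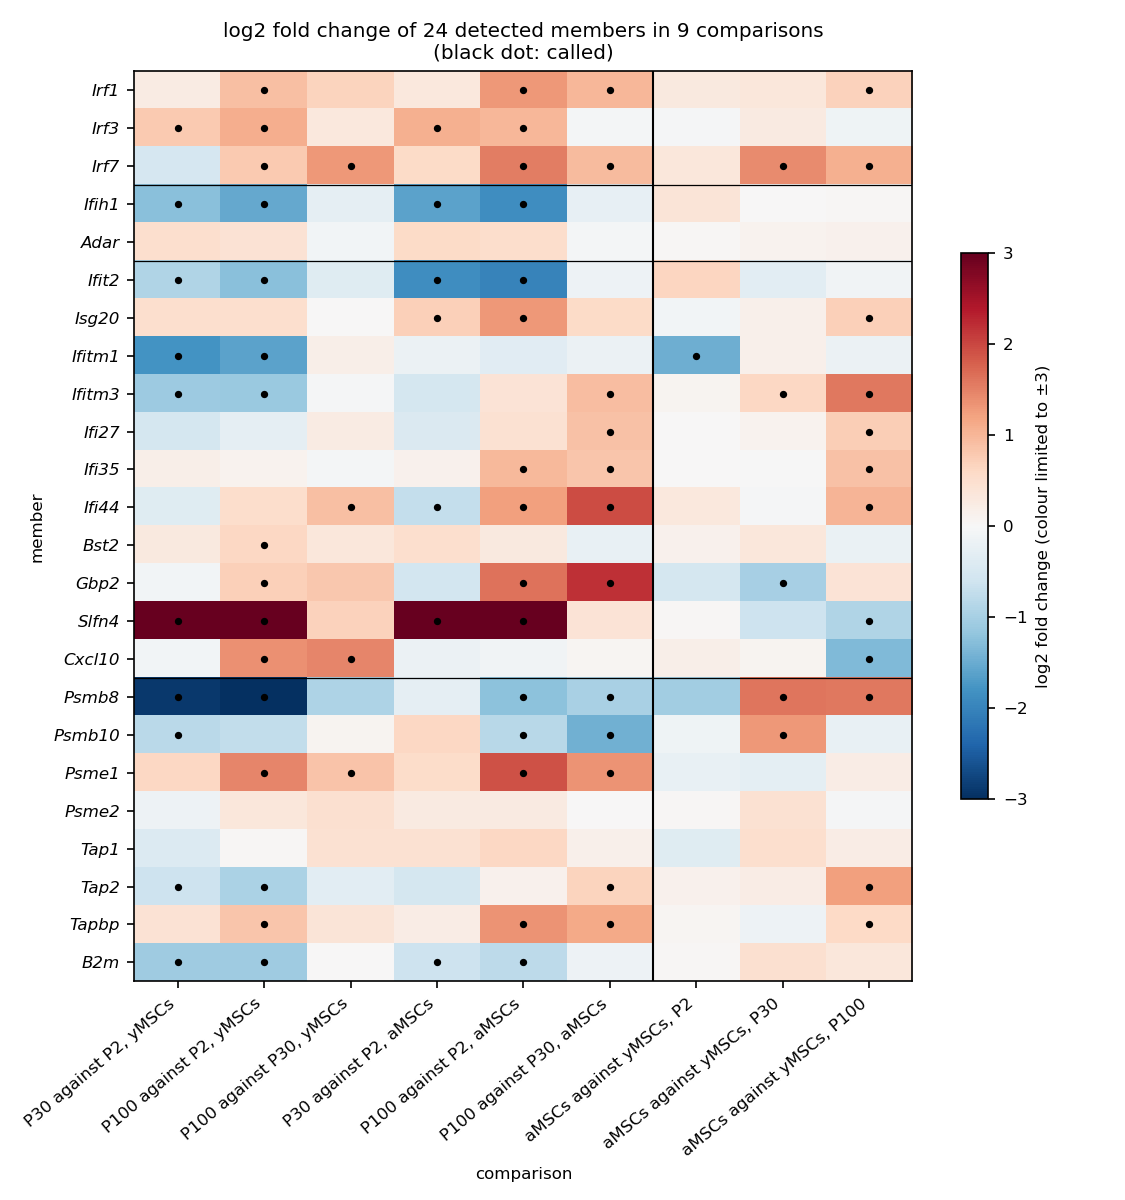
Log2 fold change of the 24 detected members (rows, by role) in 6 comparisons of passage and 3 of donor age (columns), red for higher and blue for lower in the first named group, with a black dot for a call. Slfn4 against P2 is dark red (3.01 to 4.36) and Psmb8 in yMSCs dark blue (-2.91 at P30, and at P100 a fitted value only, since no array detected it there), and the last column holds 10 red and 2 blue cells with dots.

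Among the regulators, Irf7 and Irf1 rose by P100 at both donor ages and were then higher in aMSCs. Irf7 is the transcription factor that amplifies the production of type I interferon and is itself induced by it. In yMSCs, Irf7 had log2 signals of 5.85, 6.10 and 6.36 at P2, of 5.59, 5.75 and 5.46 at P30, and of 6.77, 7.03 and 6.87 at P100. In aMSCs, Irf7 had 6.44, 6.00 and 6.86 at P2, 7.30, 7.25 and 6.51 at P30, then 7.92, 8.10 and 7.86 at P100. All arrays of P100 lay above all arrays of P2 and P30 of the same donor age, and at P30 and P100 every array of aMSCs lay above every array of yMSCs. The rise from P2 to P100 was 0.79 ± 0.22 (SE) in yMSCs (adjusted p = 0.00708) and 1.53 ± 0.22 in aMSCs (adjusted p = 2.98e-05). Set against yMSCs, Irf7 was higher in aMSCs by 1.42 ± 0.22 at P30 (adjusted p = 0.000237) and by 1.07 ± 0.22 at P100 (adjusted p = 0.00184). The change from P2 to P30 was -0.51 in yMSCs (adjusted p = 0.0748) and 0.58 in aMSCs (adjusted p = 0.0363, just under the fold limit), and these changes differed by 1.09 ± 0.31 (adjusted p = 0.0321). That difference was no longer past the threshold without yMSCs P2 replicate 2 or 3, aMSCs P2 replicate 1 or 2, yMSCs P30 replicate 1 or 3, or aMSCs P30 replicate 1 or 2 (adjusted p = 0.0518 to 0.0944).

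Irf1, which binds the same promoter element and drives genes of MHC class I presentation, rose later. In yMSCs, Irf1 read 7.08, 7.71 and 8.20 at P2, 7.96, 7.92 and 7.84 at P30, and 8.46, 8.67 and 8.57 at P100. In aMSCs, Irf1 read 7.85, 7.69 and 8.30 at P2, 8.15, 8.19 and 8.43 at P30, then 9.30, 9.41 and 9.06 at P100. The arrays of P30 overlapped those of P2, and those of P100 lay above both. From P2 to P100 the rise was 0.90 ± 0.22 in yMSCs (adjusted p = 0.00257) and 1.31 ± 0.22 in aMSCs (adjusted p = 0.000118). At P100 Irf1 was 0.69 ± 0.22 higher in aMSCs (adjusted p = 0.0291), a call that was lost without any 1 array of the 6 except aMSCs P100 replicate 3 (adjusted p = 0.0522 to 0.0964 without the others).

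Irf3, the factor that first switches on type I interferon genes after a sensor has fired, had risen by P30 at both donor ages. In yMSCs, Irf3 read 8.83, 9.19 and 9.45 at P2, 9.76, 9.97 and 10.07 at P30, and 10.26, 10.36 and 10.14 at P100. In aMSCs, Irf3 read 9.14, 9.14 and 9.09 at P2, 10.32, 10.11 and 10.16 at P30, then 10.32, 10.00 and 10.07 at P100. No array of P2 reached any array of a later passage. The rises from P2 were 0.78 ± 0.15 and 1.10 ± 0.15 in yMSCs at P30 and P100 (adjusted p = 6e-04 and 1.59e-05), and 1.07 ± 0.15 and 1.01 ± 0.15 in aMSCs (adjusted p = 2.94e-05 and 4.31e-05). The changes to P100 differed between donor ages by -0.09 ± 0.21 (adjusted p = 0.839).

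The sensor Ifih1 (Mda5) went the other way. In yMSCs, Ifih1 read 6.09, 5.78 and 5.89 at P2, 4.72, 4.63 and 4.68 at P30, and 4.39, 4.40 and 4.40 at P100. In aMSCs, Ifih1 read 6.37, 6.24 and 6.31 at P2, 4.69, 4.69 and 4.70 at P30, then 4.34, 4.59 and 4.39 at P100. Every array of P2 was detected and no later array was, which leaves only a bound on the later level. Against the lowest detectable signal, Ifih1 was at least 1.57-fold lower at P30 and at least 1.42-fold lower at P100 in yMSCs (adjusted p = 2.15e-07 and 9.27e-09), and at least 1.85-fold and at least 2.3-fold lower in aMSCs (adjusted p = 1.55e-08 and 8.9e-10). Each such bound sets the mean of the brighter group against the higher of the lowest signal of detected probes and the signal of the gene itself on each array of the dimmer group. Of 15 tested macrophage markers, 15 (16.4% of all tested genes) and 13 (18.7%) fell in the same comparisons of yMSCs. In those of aMSCs 9 (20%) and 8 (18.6%) fell, and the part of these markers in the fall of Ifih1 was not tested. Adar, which edits double-stranded RNA and so keeps it from the sensor, was called in no comparison, since its differences of 0.43 to 0.57 between P2 and the later groups (adjusted p = 0.000867 to 0.00629) stayed under the fold of 1.5.

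Among the interferon-induced genes beside the regulators, Slfn4 rose from P2 to both later passages at both donor ages. It belongs to the Schlafen family, whose mouse genes are induced by interferon in myeloid cells. In yMSCs, Slfn4 read 6.12, 6.04 and 6.58 at P2, 10.66, 9.46 and 9.62 at P30, and 10.51, 10.70 and 10.60 at P100. In aMSCs, Slfn4 read 6.30, 6.32 and 6.25 at P2, 9.32, 9.06 and 9.52 at P30, then 9.64, 10.09 and 9.38 at P100. The later arrays all lay far above those of P2, and yMSCs P30 replicate 1, an array that stood apart, was the highest of its group. The rise from P2 was 12.7-fold at P30 and 20.5-fold at P100 in yMSCs (log2 3.67 ± 0.26 and 4.36 ± 0.26, adjusted p = 9.4e-09 and 5.38e-10). In aMSCs it was 8.06-fold and 10.6-fold (log2 3.01 ± 0.26 and 3.41 ± 0.26, adjusted p = 1.41e-07 and 1.41e-08). At P100 Slfn4 was 0.90 ± 0.26 lower in aMSCs (adjusted p = 0.0162), which was no longer past the threshold without yMSCs P100 replicate 2 or aMSCs P100 replicate 1 or 3 (adjusted p = 0.0512 to 0.0626). Slfn4 lies close to Slfn3 and other Schlafen genes on chromosome 10, and RefSeq gives Slfn3 as another name of it, so which of these transcripts the probe reads is uncertain.

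Ifit2 was seen at P2 and near background afterwards. In yMSCs, Ifit2 read 6.17, 5.79 and 5.49 at P2, 5.72, 4.49 and 4.56 at P30, and 4.43, 4.63 and 4.62 at P100. In aMSCs, Ifit2 read 6.48, 6.64 and 6.29 at P2, 4.35, 4.40 and 5.06 at P30, then 4.39, 4.54 and 4.44 at P100. Replicate 1 of yMSCs P30 was the only later array with a detected value, and it overlapped the arrays of yMSCs P2. Ifit2 was at least 1.32-fold lower in yMSCs P100 than at P2 (adjusted p = 0.00107), at least 2.07-fold lower in aMSCs P30 (adjusted p = 3.84e-05) and at least 2.58-fold lower in aMSCs P100 (adjusted p = 1.41e-05). The change to P30 in yMSCs, -0.90 ± 0.27 (adjusted p = 0.0136), was no longer past the threshold without yMSCs P2 replicate 1 or yMSCs P30 replicate 2 or 3 (adjusted p = 0.0668 to 0.0724).

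Ifi44 and Gbp2 were lowest at P30 and highest at P100 in aMSCs. Ifi44 is a cytoplasmic protein of type I responses. In yMSCs, Ifi44 read 5.55, 5.84 and 5.45 at P2, 5.61, 5.17 and 4.94 at P30, and 6.22, 5.98 and 6.19 at P100. In aMSCs, Ifi44 read 5.70, 5.92 and 6.16 at P2, 5.22, 4.87 and 5.53 at P30, then 7.23, 7.00 and 7.25 at P100. The arrays of aMSCs P100 lay above every other array. At P30 Ifi44 was not detected as a group at either donor age. Changes to or from P30 therefore rest in part on signals near background, and their sizes are uncertain. From P30 to P100 the rise was 0.89 ± 0.19 in yMSCs (adjusted p = 0.00548) and 1.95 ± 0.19 in aMSCs (adjusted p = 7.79e-07), and these rises differed by 1.06 ± 0.27 (adjusted p = 0.0108). At P100 Ifi44 was 2.04-fold higher in aMSCs (log2 1.03 ± 0.19, adjusted p = 0.000842). The fall in aMSCs from P2 to P30, 0.72 ± 0.19 (adjusted p = 0.00537), dropped under the fold limit without aMSCs P30 replicate 2, where the log2 change was -0.55.

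Gbp2 is a GTPase that attacks the vacuoles of intracellular pathogens and is a typical target of interferon gamma. In yMSCs, Gbp2 read 5.05, 6.21 and 6.11 at P2, 5.68, 5.99 and 5.42 at P30, and 6.63, 6.46 and 6.42 at P100. In aMSCs, Gbp2 read 4.77, 5.23 and 5.82 at P2, 5.05, 4.58 and 4.51 at P30, then 6.70, 6.88 and 7.14 at P100. No array of aMSCs P30 was detected, and those of aMSCs P100 were the brightest of all. From P30 to P100 the rise in aMSCs was at least 2.8-fold (adjusted p = 2.02e-05), against 0.80 ± 0.29 on the log2 scale in yMSCs (adjusted p = 0.102). The fitted rises differed by 1.39 ± 0.41 (adjusted p = 0.0218, and 0.0521 without aMSCs P30 replicate 2), a size that rests on aMSCs P30 at background. In yMSCs the rise from P2 to P100, 0.71 ± 0.29 (adjusted p = 0.0488), was lost without yMSCs P2 replicate 1 or any 1 array of yMSCs P100 (adjusted p = 0.0772 to 0.304). At P30 Gbp2 was at least 1.21-fold lower in aMSCs than in yMSCs (adjusted p = 0.0215), which was lost without yMSCs P30 replicate 2 or aMSCs P30 replicate 2 (adjusted p = 0.0802 and 0.0842).

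The interferon-induced transmembrane proteins Ifitm3 and Ifitm1, which hinder the entry of enveloped viruses, both changed with passage in a way that differed between donor ages. In yMSCs, Ifitm3 read 12.14, 12.05 and 11.93 at P2, 10.59, 11.17 and 11.12 at P30, and 10.91, 10.96 and 10.93 at P100. In aMSCs, Ifitm3 read 12.15, 12.05 and 12.17 at P2, 11.60, 11.64 and 11.53 at P30, then 12.55, 12.07 and 12.94 at P100. The donor ages overlapped at P2 and were apart on every array of the later passages. In yMSCs Ifitm3 fell by 1.08 ± 0.18 to P30 and by 1.10 ± 0.18 to P100 (adjusted p = 0.000186 and 0.000109). The change to P100 in aMSCs was 0.40 ± 0.18 (adjusted p = 0.0834), after a rise of 0.93 ± 0.18 from P30 (adjusted p = 0.000995). At P100 the level was 3-fold higher in aMSCs (log2 1.59 ± 0.18, adjusted p = 5.64e-06), and the changes from P2 to P100 differed by 1.503 ± 0.260 (adjusted p = 0.000613). A difference of 0.63 ± 0.18 already at P30 (adjusted p = 0.0214) was lost without yMSCs P30 replicate 1 or aMSCs P30 replicate 1 or 2 (adjusted p = 0.0667 to 0.0965).

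Ifitm1 was high in 1 group. In yMSCs, Ifitm1 read 7.76, 8.55 and 7.57 at P2, 5.64, 6.17 and 6.72 at P30, and 5.99, 6.33 and 6.72 at P100. In aMSCs, Ifitm1 read 6.27, 6.62 and 6.63 at P2, 6.40, 6.39 and 6.22 at P30, then 5.88, 6.11 and 6.51 at P100. Only the arrays of yMSCs P2 stood above 7, and the other groups overlapped. Ifitm1 was 2.74-fold lower in aMSCs than in yMSCs at P2 (log2 -1.45 ± 0.28, adjusted p = 0.00378). Within yMSCs it fell by 1.79 ± 0.28 to P30 and by 1.61 ± 0.28 to P100 (adjusted p = 7.87e-05 and 0.000153). The change differed between donor ages by 1.62 ± 0.39 at P30 (adjusted p = 0.0131) and by 1.27 ± 0.39 at P100 (adjusted p = 0.0394). The latter was lost without yMSCs P2 replicate 2, any 1 array of aMSCs P2, yMSCs P100 replicate 1 or 2, or aMSCs P100 replicate 2 or 3 (adjusted p = 0.0532 to 0.111). The array with the highest Ifitm1, yMSCs P2 replicate 2, also had the highest summed signal of macrophage markers. Replicate 3 of aMSCs P2 had a sum of 2490, near the 2150 and 2550 of yMSCs P2 replicates 1 and 3. Its Ifitm1 was 6.63, against 7.76 and 7.57 on those arrays. The part of macrophages in the level of Ifitm1 was not tested.

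Cxcl10 appeared in yMSCs P100. In yMSCs, Cxcl10 read 4.41, 4.45 and 4.87 at P2, 4.47, 4.57 and 4.43 at P30, and 5.88, 6.19 and 5.80 at P100. In aMSCs, Cxcl10 read 4.47, 4.42 and 5.35 at P2, 4.70, 4.47 and 4.54 at P30, then 4.54, 4.72 and 4.65 at P100. The arrays of yMSCs P100 lay above all 15 others. There Cxcl10 was at least 1.92-fold higher than at P2, at least 1.61-fold higher than at P30 and at least 1.81-fold higher than in aMSCs P100 (adjusted p = 3.27e-05, 8.28e-05 and 0.000132). Outside yMSCs P100 no group was above background, so the fitted difference between donor ages in its change with passage is not a measured size. The detected array of aMSCs P2, replicate 3, was also the highest of its group for 14 of the 24 members (58.3%, against 35.3% of all tested genes) and for the summed macrophage markers.

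The remaining interferon-induced genes outside antigen presentation moved mainly in aMSCs P100. Isg20, an RNA-degrading exonuclease, rose there by 1.29 ± 0.22 from P2 (adjusted p = 0.000137), from a group mean of 5.24 ± 0.25 to 6.53 ± 0.49 (SD, n = 3). Ifi35, a protein that binds the interferon-induced Nmi, rose by 0.97 ± 0.24 from P2 (adjusted p = 0.0031), from 6.21 ± 0.09 to 7.19 ± 0.49. For Ifi27, a small membrane protein, the change from P2 was 0.46 ± 0.26 (adjusted p = 0.154), after a rise of 0.89 ± 0.26 from P30 (adjusted p = 0.0139). In yMSCs none of these 3 genes was called in any comparison of passages. Against yMSCs P100, the differences of 0.71 for Isg20, 0.74 for Ifi27 and 0.88 for Ifi35 passed (adjusted p = 0.0253, 0.046 and 0.0124). Isg20 and Ifi27 lost that call without any 1 array of the 6 but aMSCs P100 replicate 2, and Ifi35 without yMSCs P100 replicate 1 or aMSCs P100 replicate 1 or 3 (adjusted p up to 0.101, 0.19 and 0.0618). The rises from P30 to P100 were lost without aMSCs P30 replicate 3 or aMSCs P100 replicate 3 for Ifi27 (adjusted p = 0.0562 and 0.0702) and without aMSCs P100 replicate 1 or 3 for Ifi35 (adjusted p = 0.0515 and 0.0578). Isg20 also rose from P2 to P30 in aMSCs by 0.73 ± 0.22 (adjusted p = 0.0112), which was lost without aMSCs P2 replicate 1 or aMSCs P30 replicate 2 (adjusted p = 0.0568 and 0.0523). Bst2 rose by 0.62 ± 0.13 in yMSCs P100 (adjusted p = 0.000673) from P2, where 1 of 3 arrays detected it, and was under the fold limit without yMSCs P2 replicate 1 or yMSCs P100 replicate 1 (log2 0.57 and 0.58).

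**Figure D4:**
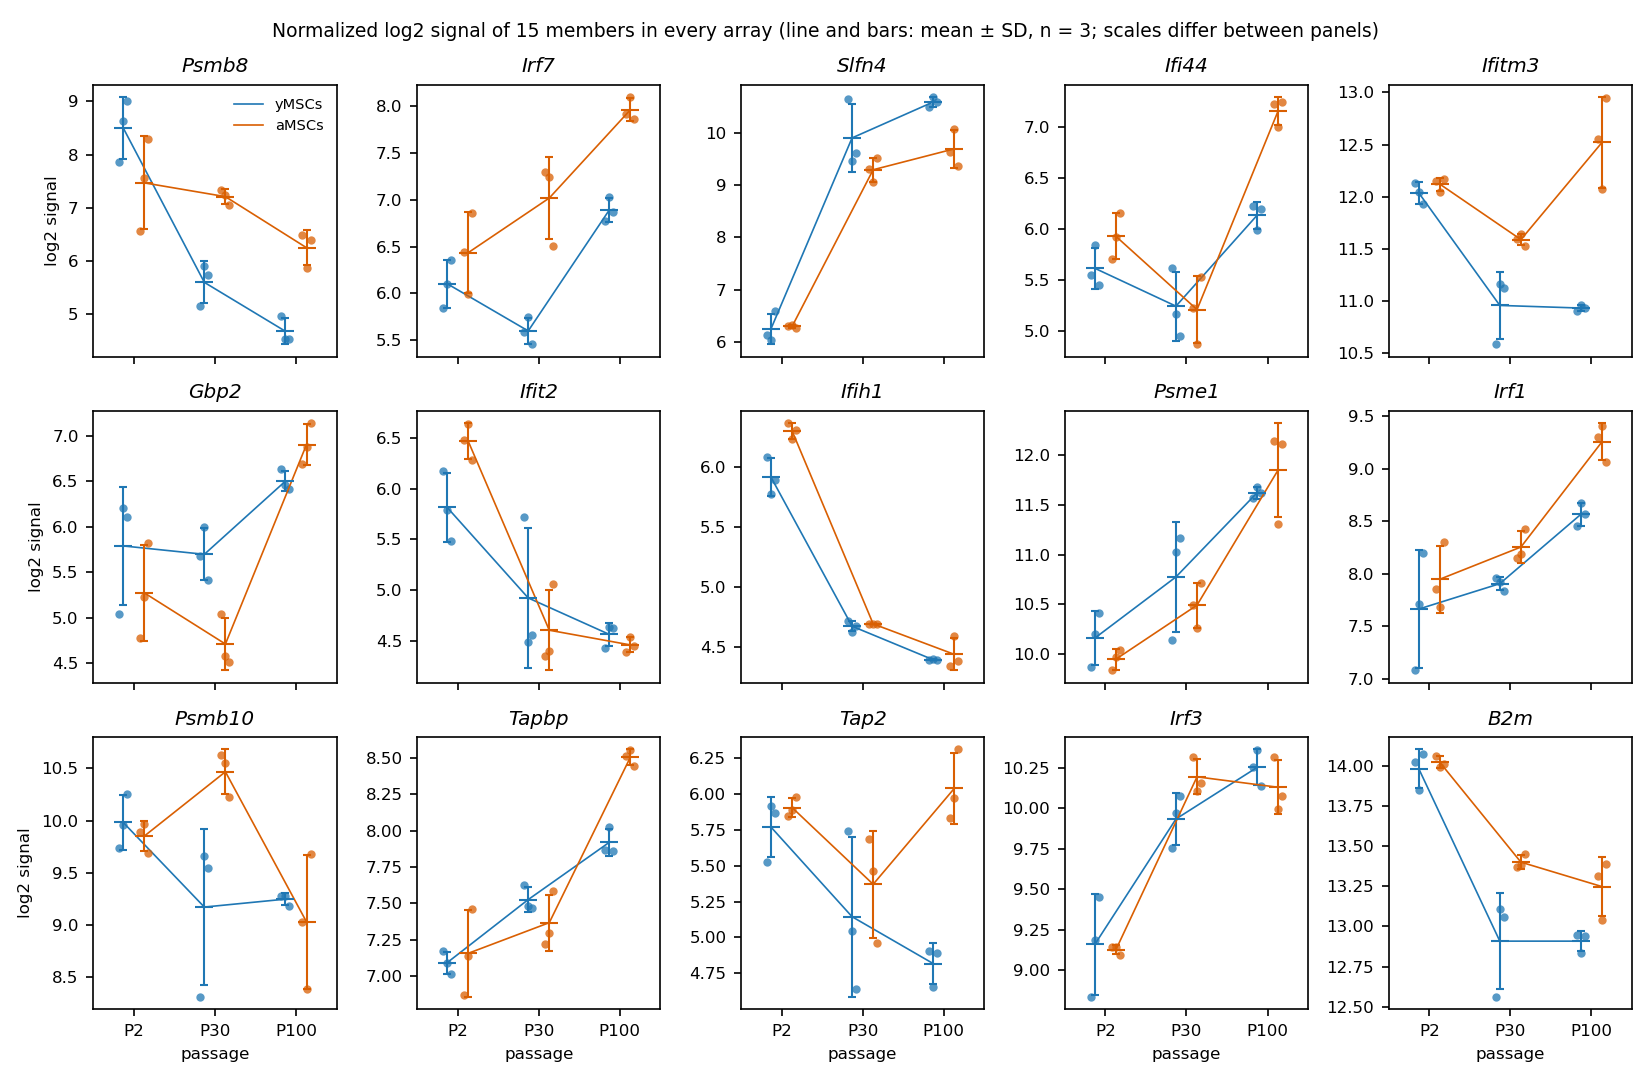
Normalized log2 signal by passage of the 15 members called most often, 1 point per array for yMSCs (blue) and aMSCs (orange), with lines through the means and bars for the SD (n = 3). Psmb8 and Ifitm3 separate the donor ages after P2, Slfn4 steps up from about 6 at P2, and Ifih1 drops to background, while Irf1, Irf7 and Psme1 end highest at P100.

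In the proteasome, the inducible catalytic subunit Psmb8 fell by more in yMSCs than in aMSCs. In yMSCs, Psmb8 read 7.86, 8.63 and 9.01 at P2, 5.15, 5.90 and 5.74 at P30, and 4.95, 4.54 and 4.53 at P100. In aMSCs, Psmb8 read 6.55, 7.56 and 8.29 at P2, 7.34, 7.23 and 7.06 at P30, then 6.48, 5.87 and 6.39 at P100. The arrays of P2 overlapped between donor ages, and at both later passages every array of aMSCs lay above every array of yMSCs. In yMSCs Psmb8 was 7.5-fold lower at P30 (log2 -2.91 ± 0.35, adjusted p = 6.38e-06) and at least 8.5-fold lower at P100, where no array detected it (adjusted p = 1.63e-07). In aMSCs the change to P30 was -0.26 ± 0.35 (adjusted p = 0.564) and that to P100 -1.22 ± 0.35 (adjusted p = 0.00935). The changes differed between donor ages by 2.65 ± 0.50 at P30 (adjusted p = 0.00227) and, with yMSCs P100 at background, by a fitted 2.61 ± 0.50 at P100 (adjusted p = 0.00155), and both differences stayed past the threshold without any 1 array. In aMSCs Psmb8 was 3.06-fold higher than in yMSCs at P30 (adjusted p = 0.00387) and at least 1.78-fold higher at P100 (adjusted p = 0.00354). Without aMSCs P2 replicate 3, the array with the highest Psmb8 and the most macrophage signal of its group, the change to P100 in aMSCs was -0.81 (adjusted p = 0.0641). In yMSCs P2 these fell on different arrays. Replicate 3 had the highest Psmb8 with a macrophage sum of 2550, and replicate 2 had the highest sum, 5370. A change of -0.96 ± 0.35 from P30 to P100 in aMSCs (adjusted p = 0.0452) was lost without any 1 of the 6 arrays (adjusted p = 0.052 to 0.158). Psmb8 is also expressed by macrophages. Of their 15 tested markers, 15 at P30 (16.4% of all tested genes) and 13 at P100 (18.7%) fell from P2 in yMSCs. In aMSCs 9 (20%) and 8 (18.6%) fell, and the part of macrophages in the changes of Psmb8 was not tested. Between donor ages the macrophage markers gave 9 calls of 15 tested at P2, all lower in aMSCs (2.29% of all tested genes). They gave 0 at P30 (8.12% higher and 9.53% lower over all) and 0 at P100 (10% and 9.03%). Their own change from P2 differed between donor ages for 4 markers at P30 (11.8%) and 5 at P100 (13.7%).

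Psmb10, the inducible partner of Psmb8 that replaces Psmb7, followed another course. In yMSCs, Psmb10 read 9.74, 9.96 and 10.26 at P2, 8.31, 9.66 and 9.55 at P30, and 9.28, 9.28 and 9.18 at P100. In aMSCs, Psmb10 read 9.89, 9.97 and 9.69 at P2, 10.63, 10.55 and 10.23 at P30, then 9.02, 8.39 and 9.68 at P100. It stood highest in aMSCs P30, apart from all other late arrays. At P30 it was 2.46-fold higher in aMSCs (log2 1.30 ± 0.31, adjusted p = 0.00733), and from P30 to P100 it fell in aMSCs by 1.44 ± 0.31 (adjusted p = 0.00215). The changes from P30 to P100 differed between donor ages by -1.51 ± 0.44 (adjusted p = 0.0215, and 0.0575 without aMSCs P100 replicate 2). Its fall from P2 was called at P30 in yMSCs (-0.81 ± 0.31, adjusted p = 0.0457) and at P100 in aMSCs (-0.82 ± 0.31, adjusted p = 0.0392). The former was lost without any 1 array of yMSCs P2 or without yMSCs P30 replicate 1 (adjusted p = 0.0504 to 0.266), and the latter without any 1 of the 6 arrays but aMSCs P100 replicate 3 (adjusted p = 0.0547 to 0.206). The change to P30 differed between donor ages by 1.43 ± 0.44 (adjusted p = 0.0454), which was lost without any 1 array of P2, yMSCs P30 replicate 1 or aMSCs P30 replicate 1 or 2 (adjusted p = 0.051 to 0.107). The second probe of Psmb10 gave the same order of the groups of aMSCs, with means of 8.17 at P2, 9.10 at P30 and 7.62 at P100, and 8.22, 7.86 and 7.98 in yMSCs.

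Psme1 and Psme2 form the PA28 activator that opens the proteasome for peptide release. In yMSCs, Psme1 read 9.87, 10.20 and 10.41 at P2, 10.14, 11.02 and 11.17 at P30, and 11.56, 11.68 and 11.62 at P100. In aMSCs, Psme1 read 9.84, 9.97 and 10.04 at P2, 10.49, 10.27 and 10.72 at P30, then 12.14, 11.31 and 12.10 at P100. All arrays of P100 lay above all earlier arrays of both donor ages. The rise from P2 to P100 was 2.75-fold in yMSCs (log2 1.46 ± 0.25, adjusted p = 0.000145) and 3.73-fold in aMSCs (log2 1.90 ± 0.25, adjusted p = 1.12e-05). That from P30 to P100 was 1.36 ± 0.25 in aMSCs (adjusted p = 0.00056) and 0.84 ± 0.25 in yMSCs (adjusted p = 0.0432), the latter lost without yMSCs P30 replicate 1 or any 1 array of yMSCs P100 (adjusted p = 0.097 to 0.196). Psme2 was called in no comparison. In yMSCs, Psme2 read 8.16, 8.44 and 8.58 at P2, 7.68, 8.48 and 8.57 at P30, and 8.62, 8.78 and 8.80 at P100. In aMSCs, Psme2 read 8.49, 8.23 and 8.55 at P2, 8.80, 8.66 and 8.61 at P30, then 8.87, 8.04 and 9.21 at P100. Its arrays overlapped between passages in aMSCs, and its change from P2 to P100 was 0.34 ± 0.25 in yMSCs and 0.28 ± 0.25 in aMSCs (adjusted p = 0.279 and 0.385).

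The peptide transporter subunits Tap1 and Tap2 also differed from each other. Tap2 was detected on all arrays of P2 and of aMSCs P100. In yMSCs, Tap2 read 5.53, 5.91 and 5.86 at P2, 5.74, 5.05 and 4.64 at P30, and 4.90, 4.66 and 4.89 at P100. In aMSCs, Tap2 read 5.84, 5.89 and 5.98 at P2, 5.69, 5.47 and 4.96 at P30, then 5.83, 5.97 and 6.31 at P100. The arrays of the donor ages overlapped at P2 and P30 and were apart at P100. There Tap2 was at least 1.54-fold higher in aMSCs (adjusted p = 0.00103), and in yMSCs it was at least 1.28-fold lower at P100 than at P2 (adjusted p = 0.00302). With yMSCs P100 at background, the fitted change from P2 to P100 differed between donor ages by 1.08 ± 0.33 (adjusted p = 0.0381), and that from P30 to P100 by 0.99 ± 0.33 (adjusted p = 0.0413). The former was lost without any 1 of the 12 arrays but yMSCs P2 replicate 1 and aMSCs P100 replicate 1 (adjusted p = 0.0514 to 0.0936). The latter was lost without any 1 of the 12 arrays but yMSCs P30 replicate 2 or 3, aMSCs P30 replicate 1 and aMSCs P100 replicate 1 (adjusted p = 0.0584 to 0.0918). The change of -0.62 ± 0.24 to P30 in yMSCs (adjusted p = 0.0408) was lost without yMSCs P2 replicate 2 or 3 or yMSCs P30 replicate 2 or 3 (adjusted p = 0.102 to 0.213), and the rise of 0.67 ± 0.24 from P30 to P100 in aMSCs (adjusted p = 0.037) without aMSCs P30 replicate 2 or 3 or aMSCs P100 replicate 2 or 3 (adjusted p = 0.0635 to 0.144). Tap1 had group means of 5.92 to 6.60 and was called in no comparison.

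Tapbp rose at both donor ages, and more in aMSCs after P30. In yMSCs, Tapbp read 7.17, 7.09 and 7.01 at P2, 7.63, 7.48 and 7.47 at P30, and 7.87, 8.03 and 7.86 at P100. In aMSCs, Tapbp read 6.87, 7.14 and 7.46 at P2, 7.22, 7.29 and 7.58 at P30, then 8.52, 8.56 and 8.45 at P100. The 3 arrays of aMSCs P100 lay above all others. The rise from P2 to P100 was 0.83 ± 0.14 in yMSCs (adjusted p = 0.000164) and 1.35 ± 0.14 in aMSCs (adjusted p = 1.08e-06), and the rise from P30 to P100 differed between donor ages by 0.75 ± 0.20 (adjusted p = 0.0154). At P100 Tapbp was 0.59 ± 0.14 higher in aMSCs (adjusted p = 0.00665), which fell under the fold limit without yMSCs P100 replicate 1 or 3 or aMSCs P100 replicate 1 or 2 (log2 0.56 to 0.58).

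B2m was lower after P2 on every array. In yMSCs, B2m read 14.02, 13.85 and 14.08 at P2, 12.56, 13.11 and 13.06 at P30, and 12.95, 12.84 and 12.94 at P100. In aMSCs, B2m read 14.06, 13.99 and 14.01 at P2, 13.37, 13.38 and 13.45 at P30, then 13.32, 13.04 and 13.39 at P100. The arrays of P2 overlapped between donor ages, and aMSCs lay above yMSCs on every array of P30 and P100. B2m fell by 1.07 ± 0.14 to P30 and to P100 in yMSCs (adjusted p = 1.59e-05 and 1.06e-05), and by 0.62 ± 0.14 and 0.77 ± 0.14 in aMSCs (adjusted p = 0.00181 and 0.000293). The differences between donor ages, 0.49 at P30 (adjusted p = 0.0206) and 0.34 at P100 (adjusted p = 0.0964), did not reach the fold of 1.5. Nearly all cells make B2m, macrophages among them, and the part of the lower macrophage markers in its fall was not tested.

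**Figure D5:**
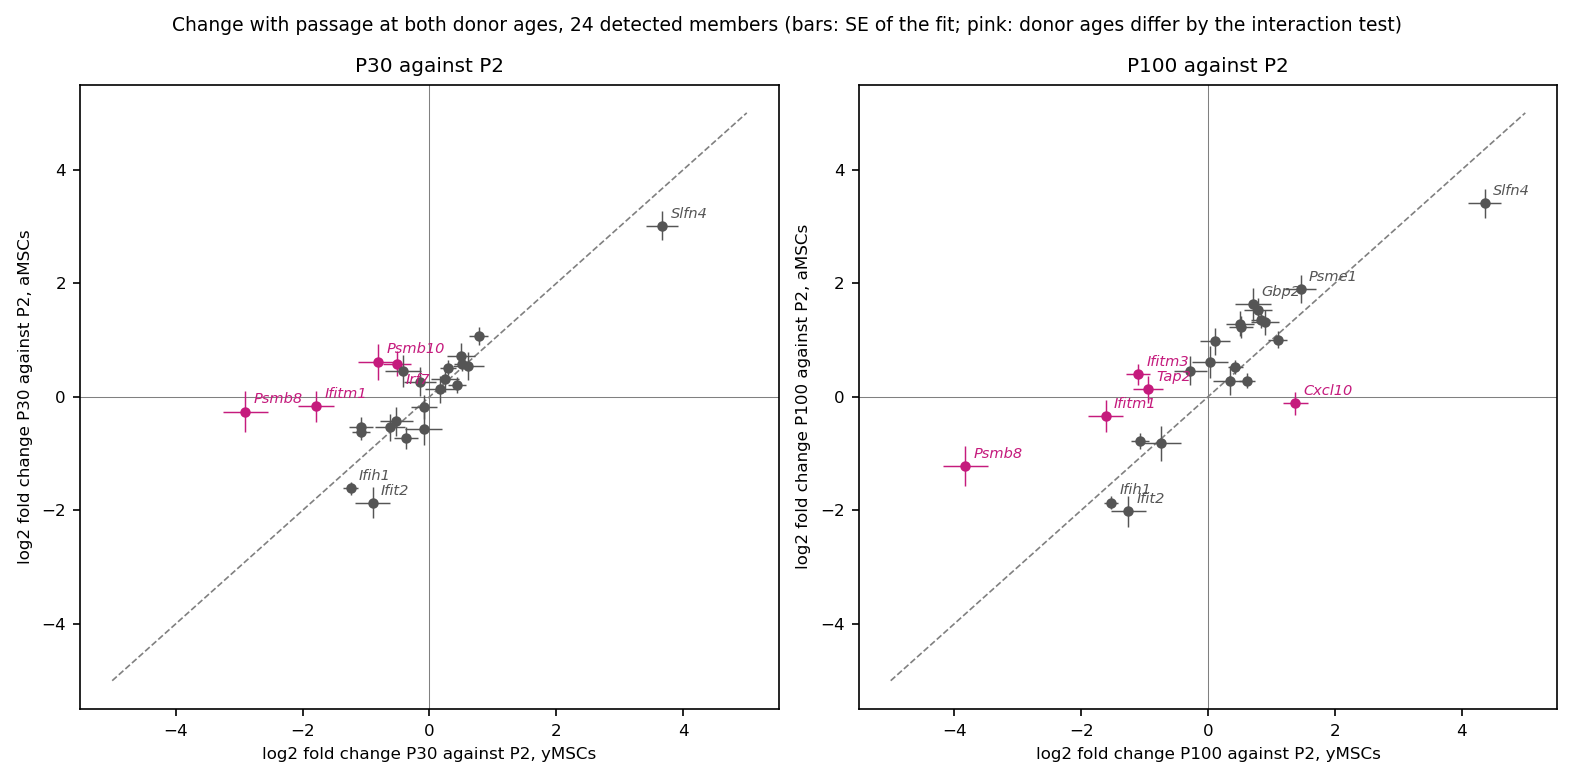
Log2 fold change from P2 to P30 (left) and from P2 to P100 (right) in yMSCs (x axis) against that in aMSCs (y axis) for the 24 detected members, with bars for the SE of the fit, a dashed line of equal change, and in pink the members whose change differed by the interaction test. Psmb8 lies far left of the line at P30 (-2.91 in yMSCs against -0.26 in aMSCs). Some points are fitted values of groups in which no array detected the gene, among them Psmb8 in yMSCs and Cxcl10 in aMSCs at P100. The same holds for Ifih1 at P30 and P100, for Ifit2 at P100 and for Tap2 in yMSCs at P100. It also holds for Ifit2 and Gbp2 in aMSCs at P30. Both panels share the P2 arrays within a donor age.

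Other genes of the same pathways were read from lists. Of 16 tested genes of MHC class I chains and peptide loading, 8 fell (16.4% of all tested genes) and 1 rose (16.4%) at P30 in yMSCs, and 6 fell (18.7%) and 1 rose (20.6%) at P100. In aMSCs 6 fell (20%) and 1 rose (19.3%) at P30, and 5 fell (18.6%) and 1 rose (19.1%) at P100. The median log2 fold changes were -0.58 and -0.33 in yMSCs and -0.22 and -0.04 in aMSCs, against 0.04, 0.06, 0.05 and 0.03 over all genes. RT1-A1, a classical class I heavy chain, went from 10.45 ± 0.17 to 7.17 ± 0.23 and 7.97 ± 0.09 in yMSCs, and from 10.07 ± 0.45 to 9.16 ± 0.27 and 8.35 ± 0.30 in aMSCs (SD, n = 3). The log2 changes were -3.27 at P30 and -2.48 at P100 in yMSCs (adjusted p = 4.42e-09 and 6.98e-08), and -0.90 and -1.72 in aMSCs (adjusted p = 0.00232 and 5.92e-06). The change to P30 differed between donor ages by 2.37 (adjusted p = 6.45e-05). RT1-A2 of the same list was not called at P100, with changes of -0.20 in yMSCs and 0.73 in aMSCs (adjusted p = 0.788 and 0.291). At P30 its changes were -1.44 (adjusted p = 0.0442) and 0.28 (adjusted p = 0.694), and its SD within aMSCs P2 was 1.74. By flow cytometry, the paper found RT1A protein on both P100 cultures. RT1-T24-4, a nonclassical class I gene, was lower too, with log2 changes of -2.62 and -2.22 in yMSCs and of -1.17 and -1.34 in aMSCs (adjusted p = 1.23e-08, 4.95e-08, 9.04e-05 and 1.94e-05). Cd1d1, which presents lipids, was detected at P2 only and was at least 5.17-fold and at least 4.66-fold lower at P30 and P100 in yMSCs, and at least 2.17-fold and at least 2.7-fold lower in aMSCs (adjusted p = 4.65e-06 to 0.000491). RT1-N3, another nonclassical class I gene, rose by 1.17 and 1.45 in yMSCs and by 1.03 and 1.49 in aMSCs (adjusted p = 2.31e-06 to 0.000122). Class I genes of the rat are many and similar, and a probe may read more than its own gene.

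Of 31 tested ordinary subunits and assembly factors of the proteasome, 3 rose (16.4% of all tested genes) and 2 fell (16.4%) from P2 to P30 in yMSCs, and 4 rose (20.6%) and 1 fell (18.7%) to P100. In aMSCs 6 rose (19.3%) and 1 fell (20%) from P2 to P30, 2 rose (19.1%) and 3 fell (18.6%) from P2 to P100, and 2 rose (14.2%) and 8 fell (12.2%) from P30 to P100. Psmd5, an assembly chaperone, had log2 changes of -2.14 and -2.39 in yMSCs at P30 and P100 (adjusted p = 4.7e-08 and 5.72e-09) and of -1.68 in aMSCs at P100 (adjusted p = 5.51e-07). In aMSCs Pomp, which helps to assemble both kinds of proteasome, fell by 1.28 from P2 to P100 (adjusted p = 0.00178) and Psmd9, another chaperone, by 1.18 from P30 to P100 (adjusted p = 0.00201). Psmc1, an ATPase of the cap, rose by 0.96 in yMSCs and by 1.11 in aMSCs at P100 (adjusted p = 1.86e-06 and 4.14e-07). Of 5 tested genes of MHC class II, 3 fell and 1 rose at P100 at both donor ages, where 18.7% and 18.6% of all tested genes fell and 20.6% and 19.1% rose in yMSCs and aMSCs. Ctss, a protease that frees class II molecules from their chaperone and one of the macrophage markers, was detected at P2 only and at least 14.3-fold lower in yMSCs P100 and at least 7.35-fold lower in aMSCs P100 (adjusted p = 5.83e-09 and 4.03e-07). RT1-DMb, part of the editor of class II peptides, was at least 3.72-fold and at least 2.98-fold lower (adjusted p = 1.22e-05 and 8.04e-05). Its partner RT1-DMa had changes of -1 and -0.79 (adjusted p = 0.00725 and 0.0296), and Rfxank, a regulator of class II promoters, rose by 0.80 in yMSCs, where 1 of 3 arrays of P2 detected it, and by at least 1.51-fold in aMSCs (adjusted p = 0.00889 and 0.0176).

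Interferon ligands, receptors and their signalling held 12 tested genes. From P2 to P100, 0 of them rose (20.6% of all tested genes) and 5 fell (18.7%) in yMSCs. In aMSCs 2 rose (19.1%) and 4 fell (18.6%). The ligand Ifna4 was detected as a group in aMSCs P30 alone and was called in no comparison. Its log2 change from P2 to P30 in aMSCs was 0.56 (adjusted p = 0.0124), under the fold limit. Il10rb, a chain shared by the receptors of interferon lambda and interleukin 10, had log2 changes of -1.25 in yMSCs and -0.98 in aMSCs at P100 (adjusted p = 2.31e-06 and 3.5e-05). The kinase Jak2 had -1.35 and -0.83 (adjusted p = 0.000138 and 0.00698). Irf5, a factor of inflammatory responses, was at least 2.17-fold lower in yMSCs P100, where no array detected it, and changed by -1.29 in aMSCs, where 2 of 3 arrays of P100 detected it (adjusted p = 4.68e-06 and 0.000714). Socs1, an inhibitor of Jak kinases that interferon induces, was at least 1.27-fold higher in aMSCs P100 than at P2 (adjusted p = 0.000261), and no array of yMSCs detected it. Of 5 tested sensors and adaptors, 2 rose (19.1% of all tested genes) and 0 fell (18.6%) from P2 to P100 in aMSCs, and 1 rose (20.6%) and 1 fell (18.7%) in yMSCs, shares that in yMSCs are close to those of all genes. Ikbke, a kinase upstream of Irf3 and Irf7, rose by 1.70 (adjusted p = 1e-07) and Myd88, an adaptor of Toll-like receptors, by 0.89 (adjusted p = 2.64e-05) in aMSCs P100. Both changes differed from those in yMSCs, by 1.15 for Ikbke (adjusted p = 0.00102) and by 1.00 for Myd88 (adjusted p = 0.000908). In yMSCs P100, Mavs, the adaptor of Ifih1, fell by 0.90 (adjusted p = 0.00835) and Trim25, which activates RNA sensing, was called higher (adjusted p = 0.000187) but was detected on 1 of 3 arrays there and on 0 at P2, so no fold is given.

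Further interferon-induced genes outside the 39 gave 16 tested genes. From P2 to P100, 1 rose (20.6% of all tested genes) and 4 fell (18.7%) in yMSCs, and 2 rose (19.1%) and 1 fell (18.6%) in aMSCs, while from P30 to P100 in aMSCs 6 rose (14.2%) and 1 fell (12.2%). Lgals3bp, a secreted glycoprotein, was close to its P2 level of 8.78 ± 0.11 in aMSCs P100 (8.82 ± 0.23) but fell in yMSCs from 8.88 ± 0.09 to 7.67 ± 0.16 (adjusted p = 1.07e-05), and these changes differed by 1.25 (adjusted p = 0.000941). Plscr1, a lipid scramblase with antiviral activity, rose at P100 by 1.06 in yMSCs (adjusted p = 0.000185) and by 0.72 in aMSCs (adjusted p = 0.00462). Ifi47, an immunity-related GTPase, was called lower in yMSCs P100 (adjusted p = 0.00101), where no array detected it, against 2 of 3 arrays at P2, and its size is unknown. Ifi27l2b, a relative of Ifi27, had changes of -0.76 in yMSCs and -1 in aMSCs at P100 (adjusted p = 0.0452 and 0.0116).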

How the data were processed

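RNA of 18 samples was hybridised to 1-colour BeadChips, and groups and replicate numbers were taken from the labels. The authors deposited scanner intensities, neither background-subtracted nor normalized, each with a deposited detection p-value. They also deposited intensities background-subtracted and normalized by rank invariance in BeadStudio 3, used only as an alternative. Log2 values were computed with neqc of limma 3.58.1 in R 4.3.3 (normexp by the detection p-values, offset 16, quantile normalization). Because of the offset, log2 differences of genes near background understate the change. A gene with several probes was read from its brightest probe. Genes detected in at least 1 group entered a limma model of 6 group means without covariates (12 residual and 4.51 prior degrees of freedom), with Benjamini-Hochberg adjustment over 9531 genes and 12 comparisons, 3 of them interactions, and all alternatives of the closing section were run on it. The procedure was tested on simulated data. With 3 arrays a group, the number of arrays limits the precision, and p-values measure the spread between these arrays only.

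Same-numbered arrays of different groups did not deviate together (r of -0.72 to 0.57, over 0.1 in 6 of 45 pairs), so numbers do not pair arrays.

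The members and lists were chosen with earlier results of these data known. Values of every array are given by rule for the 14 members called most often, ties ordered by the range of group means, and for Psme2, the brightest uncalled member. They are also given for B2m, Ifitm1 and Cxcl10, chosen after their values were seen. B2m had as many calls as the last of the 14, and the figure of array values shows it with them. Of each list up to 4 genes of largest change are named, and besides these Cd14, Fcgr2a, Cd44, Col1a1, RT1-A2 and Ifna4. Promoters came from RefSeq, build GRCr8. For Ifitm1, Isg15, Mx2, Adar, Ifit1, Usp18 and Ifit2 no window was used here.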

Additional observations from a re-analysis of the deposited data

Results flagged for a closer look

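The change with passage differed between donor ages past the threshold for the following members, each value being the change in aMSCs minus that in yMSCs on the log2 scale, by the interaction term of limma. From P2 to P30 the difference was 2.65 for Psmb8, 1.62 for Ifitm1, 1.43 for Psmb10 and 1.09 for Irf7. From P2 to P100 it was 2.61 for Psmb8, 1.5 for Ifitm3, 1.27 for Ifitm1, 1.08 for Tap2 and -1.49 for Cxcl10. From P30 to P100 it was 1.39 for Gbp2, 1.06 for Ifi44, 0.99 for Tap2, 0.96 for Ifitm3, 0.75 for Tapbp, -1.40 for Cxcl10 and -1.51 for Psmb10. The values of Cxcl10, of Tap2, of Psmb8 to P100 and of Gbp2 are fitted and rest in part on groups in which no array detected the gene, so their sizes are not measured. The value of Ifi44 rests in part on the P30 groups, where Ifi44 was not detected as a group, so its size is uncertain. The late passages are described as a pair of long-term cultures, 1 for each donor age, so donor age and culture cannot be told apart in these values. Groups of 3 arrays were too small for a search for outlying arrays.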

How the results depend on the processing

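Of 98 calls of a member in a comparison, 49 held under every alternative, and of 1969 member values under an alternative 1685 were still called, 284 were not and 0 changed sign. Leaving out each array in turn gave 8 to 10 members called for P30 against P2 in yMSCs, 14 to 17 for P100 against P2 and 3 to 4 for P100 against P30, and in aMSCs 6 to 9, 14 to 17 and 8 to 11. For aMSCs against yMSCs the ranges were 1 to 2 at P2, 3 to 6 at P30 and 6 to 10 at P100, and for the interactions 2 to 5 (P30 against P2), 3 to 7 (P100 against P2) and 5 to 9 (P100 against P30). Of the 5 calls of that second interaction, 3 were made without yMSCs P2 replicate 2, aMSCs P2 replicate 1 or 2, yMSCs P100 replicate 1 or 2, or aMSCs P100 replicate 3. Of the 4 in the first, 2 were made without yMSCs P2 replicate 2 or 3, aMSCs P2 replicate 1 or 2, yMSCs P30 replicate 1, or aMSCs P30 replicate 1 or 2.

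A fold of at least 2 left 6 and 10 calls against P2 in yMSCs (P30, P100) and 2 for P100 against P30, 4 for P30 against P2 and 6 for P100 against P30 in aMSCs, 3 and 6 between donor ages at P30 and P100, and 4 for the interaction P100 against P30. For P30 against P2 in aMSCs, the adjusted p alone, a floor of 16 in place of normexp and the deposited normalized intensities each gave 11. For aMSCs against yMSCs at P30, the deposited normalized intensities and the fit to only the groups compared each gave 3. That fit gave 2 and 9 for the interactions P30 and P100 against P2. Array weights gave 7 for P100 against P30 in yMSCs, 4 between donor ages at P2, and 8 and 11 for those interactions. Without normalization between arrays the interaction P30 against P2 had 2 calls, and without a filter on detection the 3 interactions had 2, 3 and 4. With aMSCs P30 represented by replicate 3 alone, assumed to vary like the other groups, the interactions P30 against P2 and P100 against P30 had 1 and 2 calls, and limma called 0 of 24 members between donor ages at P30, with 5 at an unadjusted p under 0.05. Chosen after seeing the data, leaving out yMSCs P30 replicate 1 and aMSCs P100 replicate 2 together gave 11 for the interaction P100 against P2. The causes of these shifts were not tested, except that a stricter or absent fold limit acts by construction.

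With the replicate number as a block, the interaction P30 against P2 had 2 calls, and the other counts, in the order above, were 9, 15, 4, 7, 15, 12, 1, 5, 11, 4 and 6. Without normalization between arrays the share of higher calls among all genes moved from 50% to 33.5% (P30) and from 52.5% to 32.4% (P100) against P2 in yMSCs, from 49.1% to 31.4% for P30 against P2 and from 53.8% to 68% for P100 against P30 in aMSCs, from 52.6% to 71.1% between donor ages at P100, and from 59.4% to 74.6% and 52.2% to 72.5% for the interactions P100 against P2 and P100 against P30. The median change of all genes was then -0.11, -0.15 and -0.14 in the first 3 of these and 0.13 in the last. The members stood, in that order, at 2 higher and 10 lower, 6 and 8, 2 and 5, 11 and 1, 9 and 2, 6 and 1, and 6 and 2. With the deposited normalized intensities the share was 38% for P30 against P2 in yMSCs, with 1 member higher and 10 lower, and 40.6% against 50.7% for P100 against P2 in aMSCs, with 10 higher and 5 lower. Signal over background limits genes near the detection limit.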
